A study of Mus musculus with 6 samples.

Results

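The 10 genes described here are *Prdm1*, which encodes the transcriptional repressor BLIMP-1, the long intergenic noncoding RNA gene *Gm35028* that lies past the 3′ end of *Prdm1*, and 8 genes for known or candidate chromatin partners of BLIMP-1. They are *Ehmt2*, *Kdm1a*, *Hdac1*, *Hdac2*, *Hdac3*, *Prmt5*, *Tle3* and *Ezh2*. All 10 were among the 53379 genes counted, and all 10 were among the 14555 that passed the expression filter. *Prdm1* and the 8 partner genes were chosen for their function, with earlier results of these data known. *Gm35028* was chosen from the difference between the groups in these same libraries, so its values are given without a test, and it passed the filter only through the group in which it was detected.

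The cells were Tfh cells sorted from spleen as live TCRβ+ CD4+ CXCR5+ PD1+ cells, 1 library per mouse, from 3 CTL and 3 *Prdm1*-CKO female mice aged 6 to 8 weeks. All 6 mice had been immunized with 100 µg of NP-CGG in complete Freund's adjuvant, and spleens were taken on day 7. *Prdm1*-CKO mice were *Prdm1* fl/fl; CD11c-CRE+, and the CTL group combined *Prdm1* fl/fl; CD11c-CRE- mice with *Prdm1* +/+; CD11c-CRE+ mice. The labels do not say which CTL mouse had which genotype, and for the other group they use KO in the sample title and KD under genotype. Cre under the CD11c promoter deletes *Prdm1* in CD11c-high dendritic cells and not in the sorted Tfh population, so the Tfh level of *Prdm1* does not check the deletion. The sort did not gate on FOXP3, and follicular regulatory T cells were not separated from Tfh cells.

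BLIMP-1 is a zinc finger protein with a PR domain, and it silences genes mainly by bringing chromatin enzymes to the promoters and enhancers it binds. In B cells it drives the plasma cell program, and in CD4+ T cells it opposes BCL6, the repressor that defines the Tfh fate, so that Tfh cells typically hold less *Prdm1* than other effector T cells. The partner proteins remove acetyl groups from histones (HDAC1, HDAC2, HDAC3), methylate or demethylate histone tails (G9a from *Ehmt2*, LSD1 from *Kdm1a*, EZH2, PRMT5) or bridge a DNA-bound repressor to deacetylases (TLE3).

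Total counts lay between 7147601 and 16973392 per library, with at most 9753574 in CTL replicates 2 and 3 and *Prdm1*-CKO replicate 2 (the shallower libraries) and at least 14177558 in the other 3 (the deeper libraries). CTL replicate 2 stood apart from the other mice. Its mean correlation across genes with the others was 0.875 against 0.923 to 0.944, and it lay at 135 on a first principal component on which the other mice lay between -29.1 and -24.0. The log2 fold changes of *Hdac2* and *Ehmt2* are given with and without it, whereas spreads and ratios are given with it only. The summed level of 10 Tfh marker genes was 2712 to 3609 CPM (counts per 1000000 counted reads, scaled by TMM) in CTL and 2619 to 2882 CPM in *Prdm1*-CKO mice. All of these markers were detected, as were all 8 of the macrophage list, at 2240 to 4814 CPM in CTL and 3914 to 4715 CPM in *Prdm1*-CKO. The macrophage sum, led by *Lyz2* at 1759 to 3468 CPM, exceeded the Tfh sum in CTL replicate 1 and every *Prdm1*-CKO mouse. Dendritic cell markers summed to 149.7 to 225.9 CPM in CTL and 155.8 to 288.6 CPM in *Prdm1*-CKO. The part of RNA from other cells in the levels below was not tested. Treg markers summed to 925.4 to 1004 CPM in CTL and 810.7 to 915.7 CPM in *Prdm1*-CKO mice. A level in sorted bulk cells is a mean over all cells in the tube, so fewer cells that express a gene and less RNA per cell cannot be told apart.

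*Prdm1* is on the minus strand of chromosome 10 of GRCm38, from 44437177 to 44528501, and *Gm35028* is on the same strand from 44418400 to 44424324, which leaves 12852 bp between them. The annotated *Gm35028* RNA has 3 exons and 2587 bases, of which 47.0% are G or C. RefSeq starts the gene 3664 bp further upstream, 9188 bp from the 3′ end of *Prdm1*. No 25-base word of this RNA occurs in the transcripts of another gene. The start regions of both genes are shown because *Prdm1* was detected in every mouse and its neighbour *Gm35028* in the *Prdm1*-CKO mice alone. Each window runs from 250 bases before to 50 bases after the RefSeq start, on the minus strand of GRCm38.p6, and capitals mark the bases from the start onward. The *Prdm1* window (chr10:44458699-44458998) lies at an internal start, inside the longer gene body that GENCODE gives.
Prdm1: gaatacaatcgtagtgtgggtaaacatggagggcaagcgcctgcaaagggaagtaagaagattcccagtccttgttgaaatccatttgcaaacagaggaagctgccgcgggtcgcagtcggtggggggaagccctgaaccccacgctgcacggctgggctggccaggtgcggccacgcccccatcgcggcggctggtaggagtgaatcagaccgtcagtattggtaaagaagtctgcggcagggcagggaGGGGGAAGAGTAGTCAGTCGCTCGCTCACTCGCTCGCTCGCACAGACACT
Gm35028: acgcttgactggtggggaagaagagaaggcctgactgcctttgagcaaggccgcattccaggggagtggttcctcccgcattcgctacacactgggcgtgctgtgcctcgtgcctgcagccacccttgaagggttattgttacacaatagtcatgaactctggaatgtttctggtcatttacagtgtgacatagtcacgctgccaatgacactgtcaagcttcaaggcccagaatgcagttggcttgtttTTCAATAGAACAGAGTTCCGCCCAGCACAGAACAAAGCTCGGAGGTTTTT

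The first 150 bases of exon 1 of the *Gm35028* RNA in the GENCODE model (exon of 605 bases, chr10:44424175-44424324, minus strand) are shown because the reads were counted on this model and not on the RefSeq start.
Gm35028 RNA: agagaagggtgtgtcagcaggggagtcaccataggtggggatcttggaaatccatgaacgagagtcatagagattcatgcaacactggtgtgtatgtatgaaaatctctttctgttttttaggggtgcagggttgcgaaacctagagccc

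RefSeq held a start region for 8 of the 10 genes, in 9 windows. Against a median of 7 CpG dinucleotides and 52.7% GC over 32851 mouse start regions of the same length, *Prdm1* had 20 CpG and 59.7% GC. *Gm35028* had 9 CpG and 51.3% GC, the lowest values of the 9 windows. The partner genes ran from 16 CpG in *Prmt5* to 40 CpG in the more GC-rich of the *Ehmt2* windows. The letters GAAAG, which form the core of sites bound by BLIMP-1 and by IRF proteins, were searched on both strands and occur in 57.3% of all start regions. Of the 9 windows only that of *Tle3* held them, with 2 matches. The longer GTGAAAG, which contains GAAAG, occurs in 4.24% of all start regions and in 0 of the 9.

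*Prdm1* was expressed at nearly the same level in all 6 mice. CTL replicates 1 to 3 had 422, 253 and 186 counts, and *Prdm1*-CKO replicates 1 to 3 had 536, 303 and 451. Scaled to library size these are 28.84, 29.9 and 27.45 CPM for CTL, then 30.13, 30.73 and 30.81 CPM for *Prdm1*-CKO. The 3 *Prdm1*-CKO values all exceeded the 3 CTL values, which held for 4.56% of all genes tested (8.42% did not overlap in either direction), but the lowest *Prdm1*-CKO value and the highest CTL value were almost equal. The group means were 28.73 ± 1.225 CPM (SD, n = 3) and 30.56 ± 0.3731 CPM (SD, n = 3). On the log2 scale *Prdm1*-CKO exceeded CTL by 0.09 (standard error 0.19, edgeR quasi-likelihood adjusted p = 0.9957), with a 95% interval of the fold from 0.783 to 1.444.

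The spread of *Prdm1* between mice was no larger than that of counting alone. Between mice of a group the coefficient of variation was 4.26% in CTL and 1.22% in *Prdm1*-CKO, whereas Poisson counting gives 4.32% to 7.33% for these counts. The 95% Poisson intervals of the 6 mice, which cover counting error only, all overlapped, from 23.7 to 31.7 CPM in CTL replicate 3 to 27.4 to 34.4 CPM in *Prdm1*-CKO replicate 2. Within groups the SD of log2 CPM was 0.05 for *Prdm1* against a median of 0.34 for the 1000 tested genes nearest to it in level, and 0 of these 1000 had a smaller SD. This steadiness included CTL replicate 2, the library that differed most from the others over all genes.

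**Figure D1:**
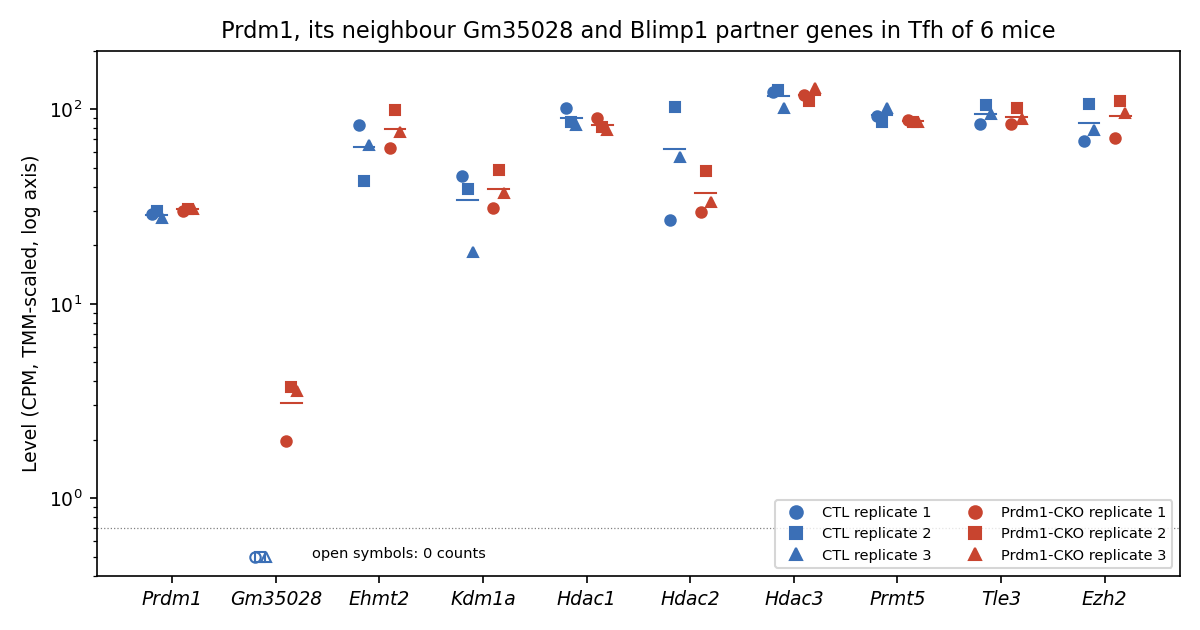
Level of each of the 10 genes in each mouse (vertical axis, TMM-scaled CPM on a log axis; blue, CTL; red, *Prdm1*-CKO; symbol shape, replicate; bars, group means). *Prdm1* sits between 27.45 and 30.81 CPM in all 6 mice, *Gm35028* has 0 counts in the 3 CTL mice (open symbols), and *Hdac2* runs from 26.93 to 102.9 CPM.

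*Gm35028* was detected only in the libraries of *Prdm1*-CKO mice, and which cells in the sorted bulk held it was not tested. No read was counted in any of the 3 CTL libraries (0 counts each), against 35, 37 and 52 in the *Prdm1*-CKO libraries, or 1.967, 3.753 and 3.553 CPM. The pattern was not unique to *Gm35028*. Altogether 6 of the 53379 genes counted, *Gm35028* included, lacked any CTL read while each *Prdm1*-CKO library held 10 or more. The opposite pattern was found in 0 genes. CTL replicates 1 to 3 had reads on 21107, 16650 and 18480 genes, and *Prdm1*-CKO replicates 1 to 3 on 21501, 19934 and 20926. The part of this difference in the 6 genes was not tested. The floors of the 3 CTL libraries, taken as 3 counts each, were 0.205, 0.355 and 0.443 CPM, which covers counting error only. For CTL replicate 2 this floor may be too low. That library had 0 counts of *Spib*, which CTL replicates 1 and 3 held at 12.98 and 8.118 CPM. Against the mean of these floors, 0.334 CPM, the *Prdm1*-CKO mean of 3.091 ± 0.9782 CPM (SD, n = 3) was 9.25-fold higher. The same fold was 7.22 with every library thinned to equal depth.

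CTL replicate 1, with 14177558 counts, was sequenced more deeply than *Prdm1*-CKO replicate 2, and its floor of 0.205 CPM is 9.6-fold under the lowest *Prdm1*-CKO level. With every library thinned to 7147601 counts, *Gm35028* kept 17, 25 and 23 counts in *Prdm1*-CKO and 0 in every CTL library, while *Prdm1* had 186 to 212 in CTL and 196 to 226 in *Prdm1*-CKO. These *Gm35028* values all come from the counts by which the gene was chosen, so they are no separate evidence. The part of depth in the pattern was not tested.

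In *Prdm1*-CKO mice *Prdm1* collected 8.19 to 15.3 counts for each count on *Gm35028*, and per kb of exon the level of *Prdm1* was 3.8 to 7.1 times that of *Gm35028*. The mean level of *Prdm1* was 28.73 CPM in CTL, where *Gm35028* had 0 counts, and 30.56 CPM in *Prdm1*-CKO. The sources used here do not state whether counting used strand, and reads from the opposite strand could be included.

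Within 1 Mb of *Prdm1* lay 51 other genes, of which 30 had a count in some mouse and 13 passed the filter. None of the 13 passed an unadjusted p under 0.05 in edgeR, against 2.35% of all genes tested, and 9 of the 13 had a log2 fold change above 0. Past the 3′ end, the nearest tested gene after *Gm35028* was *Atg5*, which encodes a protein needed to form autophagosomes. *Atg5* had 1001, 602 and 374 counts in CTL and 1450, 656 and 1054 in *Prdm1*-CKO, with a log2 fold change of 0.18. On the other side the nearest genes were *Gm48061* and *Gm5950*, with at most 3 counts and 1 count in any mouse.

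*Gm35154*, 70219 bp beyond the 5′ end of *Prdm1*, was the only one of the 13 whose groups did not overlap (8.42% of all genes tested), and it is named after its values were seen. It had 47, 0 and 5 counts in CTL and 86, 42 and 61 in *Prdm1*-CKO mice. Its log2 fold change of 1.68 did not pass the test (edgeR quasi-likelihood adjusted p = 0.9957). Its level was 3.212 CPM in CTL replicate 1, and unlike *Gm35028* it was therefore detected in a CTL library.

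**Figure D2:**
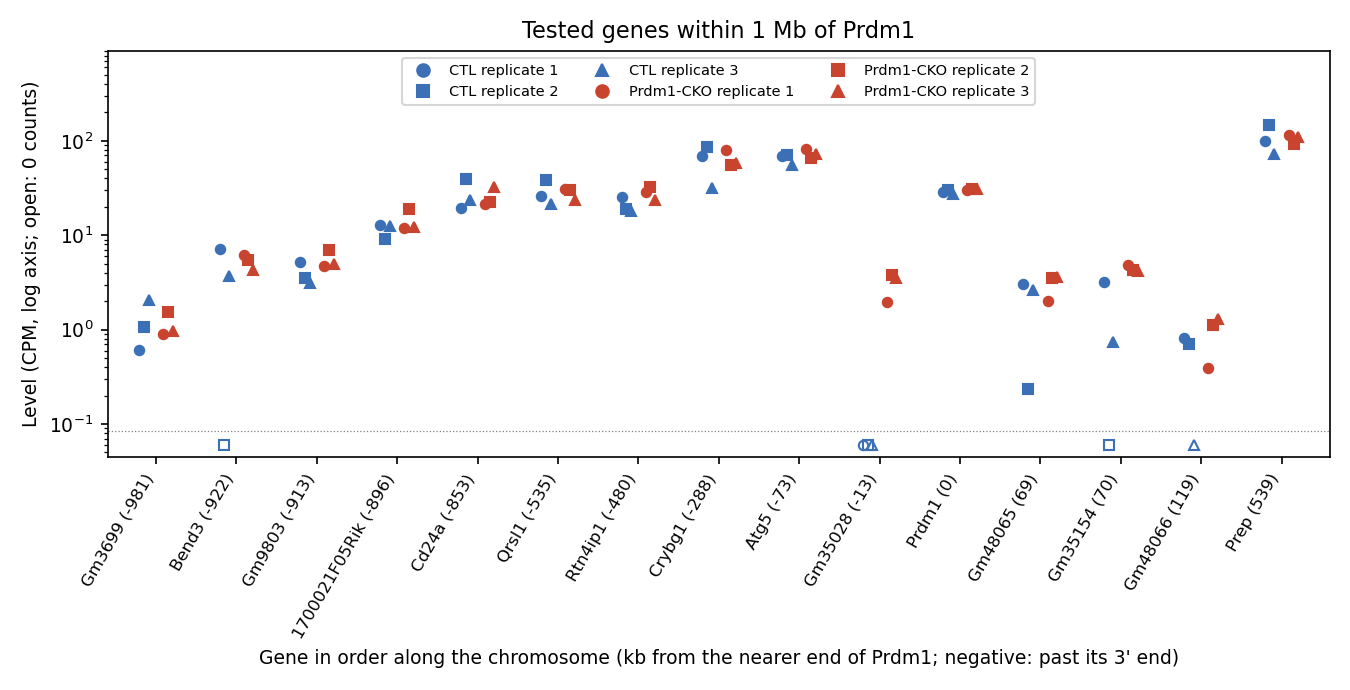
Level (CPM, log axis) in each mouse of the genes that passed the filter within 1 Mb of *Prdm1*, in chromosome order with the distance in kb in parentheses; open symbols below the dotted line mark 0 counts. *Gm35028* is the only gene with 0 counts in the 3 CTL mice, and *Prdm1* itself differs little between mice.

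None of the 8 partner genes passed the test between the groups. At an adjusted p under 0.05 in edgeR's quasi-likelihood test, 0 of the 9 genes other than *Gm35028* were higher and 0 lower, where 0% of all genes tested were called in each direction. At an unadjusted p under 0.05 the count was also 0 of 9, against 0.928% of all genes higher and 1.42% lower (135 and 207 genes, or 163 and 155 with scaling to total counts only). DESeq2 likewise called 0 of 9 at an adjusted and 0 of 9 at an unadjusted p, where it called 0.0531% and 2.62% of the genes to which it gave a p. The log2 fold change was above 0 in 5 of the 9 genes (51.1% of all genes tested). Besides *Prdm1*, the values of CTL and *Prdm1*-CKO mice overlapped in all 8.

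Of the 9 genes tested, the deacetylase gene *Hdac2* had the smallest p and the largest fold change. HDAC1 and HDAC2 are class I deacetylases that form the catalytic pair of the NuRD, Sin3 and CoREST complexes. *Hdac2* (chromosome 10, plus strand, 36974544 to 37001889) had 26.93, 102.9 and 57.12 CPM in CTL and 29.68, 48.38 and 33.48 CPM in *Prdm1*-CKO mice. CTL replicates 2 and 3 lay above every *Prdm1*-CKO mouse, but CTL replicate 1 was the lowest of all 6. Its log2 fold change was -0.74 (standard error 0.44, edgeR quasi-likelihood adjusted p = 0.9957), with a 95% interval of the fold from 0.295 to 1.207. Without CTL replicate 2 it was -0.19, and without CTL replicate 1 it was -1.12, which passed an unadjusted p under 0.05 in the same edgeR test but not the adjusted one (adjusted p = 0.6688). The level of *Hdac2* also moved with depth: the 3 deeper libraries held 26.93 to 33.48 CPM and the 3 shallower ones held 48.38 to 102.9 CPM. Among the deeper libraries the CTL mouse lay below both *Prdm1*-CKO mice, and among the shallower ones both CTL mice lay above the *Prdm1*-CKO mouse. The part of depth in the difference was not tested.

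*Hdac1* (chromosome 4, minus strand, 129516104 to 129542713) varied far less, at 101.4, 86.15 and 82.66 CPM in CTL and 90.5, 80.64 and 78.16 CPM in *Prdm1*-CKO. In each group replicate 1 held the most, and the groups overlapped. Its log2 fold change was -0.12 (standard error 0.16, edgeR quasi-likelihood adjusted p = 0.9957). The value is uncertain, since 42.1% of the 25-base words of *Hdac1* transcripts also occur in other genes and 36.0% in *Gm10093*, a processed pseudogene. *Gm10093* itself collected 1050, 554 and 418 counts in CTL and 1363, 566 and 902 in *Prdm1*-CKO mice, close to the 1483, 729 and 560 and the 1610, 795 and 1144 of *Hdac1*.

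The ratio of *Hdac1* to *Hdac2*, per kb of exon within a mouse, was 4.888, 1.087 and 1.879 in CTL and 3.96, 2.164 and 3.032 in *Prdm1*-CKO mice. *Hdac1* was therefore the higher of the pair in all 6 mice, but by anywhere from 1.087-fold to 4.888-fold. A difference between the groups in this ratio was not shown (two-sided exact permutation test, p = 0.6, where 3 mice against 3 cannot go below 0.1).

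*Hdac3* encodes the deacetylase of the NCoR corepressor complexes. It had 122.7, 125.9 and 101.8 CPM in CTL and 118.9, 109.9 and 128.5 CPM in *Prdm1*-CKO mice. The groups lay across the same range, with a log2 fold change of 0.03 (standard error 0.16, edgeR quasi-likelihood adjusted p = 0.9959) and a 95% interval of the fold from 0.795 to 1.306. *Hdac3* shared 0% of its 25-base words with other genes.

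The genes for enzymes that methylate or demethylate histone lysines varied more between mice of a group than *Hdac1* and *Hdac3*. They varied less than *Hdac2*. *Ehmt2* (chromosome 17, plus strand, 34898469 to 34914052) encodes G9a, which puts methyl groups on H3K9. Its level was 82.76, 42.9 and 65.54 CPM in CTL and 63.07, 99 and 76.52 CPM in *Prdm1*-CKO mice. *Prdm1*-CKO replicate 2 was the highest and CTL replicate 2 the lowest, and the other 4 mice interleaved. *Prdm1*-CKO over CTL gave a log2 fold change of 0.32 (standard error 0.27, edgeR quasi-likelihood adjusted p = 0.9957), with a 95% interval of the fold from 0.804 to 1.928, and with each mouse left out in turn it ran from 0.09 (CTL replicate 2 left out) to 0.54 (CTL replicate 1 left out).

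*Kdm1a* (chromosome 4, minus strand, 136550540 to 136602723) encodes LSD1, the H3K4 demethylase of CoREST. It had 45.31, 38.88 and 18.45 CPM in CTL and 30.92, 48.48 and 37.3 CPM in *Prdm1*-CKO mice. The low value was that of CTL replicate 3, with 125 counts. Its log2 fold change was 0.18 (standard error 0.34, edgeR quasi-likelihood adjusted p = 0.9957), and it turned to -0.11 with CTL replicate 3 left out and to -0.0013 with *Prdm1*-CKO replicate 2 left out.

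*Ezh2* (chromosome 6, minus strand, 47530139 to 47595341), the H3K27 methyltransferase of PRC2, had 68.75, 106.7 and 78.23 CPM in CTL and 71.11, 110.1 and 95.78 CPM in *Prdm1*-CKO mice. Replicate 2 was the highest and replicate 1 the lowest of each group. In the fit its log2 fold change was 0.13 (standard error 0.23, edgeR quasi-likelihood adjusted p = 0.9957), and it was -0.02 with CTL replicate 1 left out and -0.0099 with *Prdm1*-CKO replicate 2 left out. *Ezh2* is also a gene of dividing cells, and the summed level of 10 cycling genes was 1422 to 1629 CPM in CTL and 1651 to 1773 CPM in *Prdm1*-CKO mice. These ranges were separate by a narrow margin. Only *Mki67* of this list had a lower mean in *Prdm1*-CKO mice, 156.1 CPM against 204.3 CPM in CTL. The part of dividing cells in the *Ezh2* values was not tested. An opposite-strand noncoding gene, *Gm26625*, shares 174 exonic bases with *Ezh2* but had 17 to 62 counts per mouse against 530 to 1402 for *Ezh2*.

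*Prmt5* and *Tle3* differed little between mice. *Prmt5* (chromosome 14, minus strand, 54507187 to 54517525) encodes an enzyme that dimethylates arginines of histones H2A and H4 symmetrically. It had 92.33, 86.38 and 101.1 CPM in CTL and 88.25, 85.61 and 86.29 CPM in *Prdm1*-CKO mice. The *Prdm1*-CKO values lay within a narrow band at the lower edge of the CTL values, with a log2 fold change of -0.10 (standard error 0.15, edgeR quasi-likelihood adjusted p = 0.9957). *Tle3* (chromosome 9, plus strand, 61372366 to 61418497), a corepressor of the Groucho family, had 84.4, 105.2 and 94.91 CPM in CTL and 84.04, 101.2 and 88.82 CPM in *Prdm1*-CKO. For this gene the log2 fold change was -0.05 (standard error 0.16, edgeR quasi-likelihood adjusted p = 0.9957). Like *Hdac2*, it was lower in the 3 deeper libraries (84.04 to 88.82 CPM) than in the 3 shallower ones (94.91 to 105.2 CPM), and depth was not tested as its source.

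**Figure D3:**
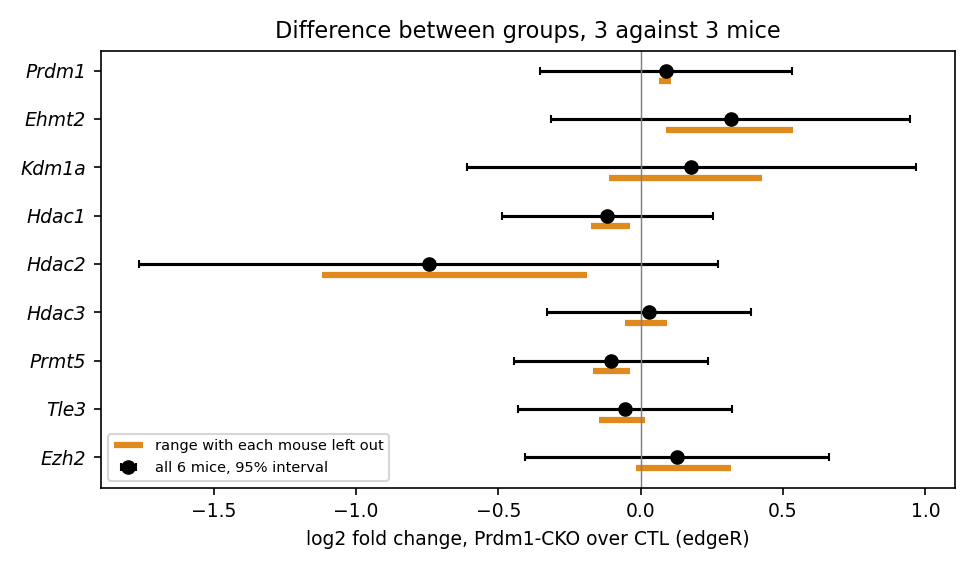
Log2 fold change of *Prdm1*-CKO over CTL (horizontal axis) for the 9 genes other than *Gm35028*, with the 95% interval of the edgeR fit (black) and the range obtained with each mouse left out in turn (orange). Every interval crosses 0, from the narrow ones of *Prmt5*, *Hdac3* and *Hdac1* to that of *Hdac2*, which runs from -1.76 to 0.27.

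For *Hdac1*, *Hdac3*, *Prmt5* and *Tle3* the 95% intervals exclude a fold above 1.306 and below 0.713. For *Ehmt2* and *Kdm1a* they reach 1.928 and 1.954, and for *Hdac2* they reach down to 0.295.

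Compared with genes of like level, the members fell at opposite ends of the range of spread. The SD of log2 CPM within groups was 0.08 for *Prmt5*, a value at the 3.4th percentile of the 1000 tested genes nearest in level, and 0.14, 0.14 and 0.15 for *Hdac1*, *Hdac3* and *Tle3*, at percentiles 14.9 to 20.1. It was 0.32 for *Ezh2* (percentile 70.2), 0.41 for *Ehmt2* (83.3), 0.54 for *Kdm1a* (84.9) and 0.73 for *Hdac2* (96.7). The most and the least variable of the 9 were thus *Hdac2* and *Prdm1*, both on chromosome 10.

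**Figure D4:**
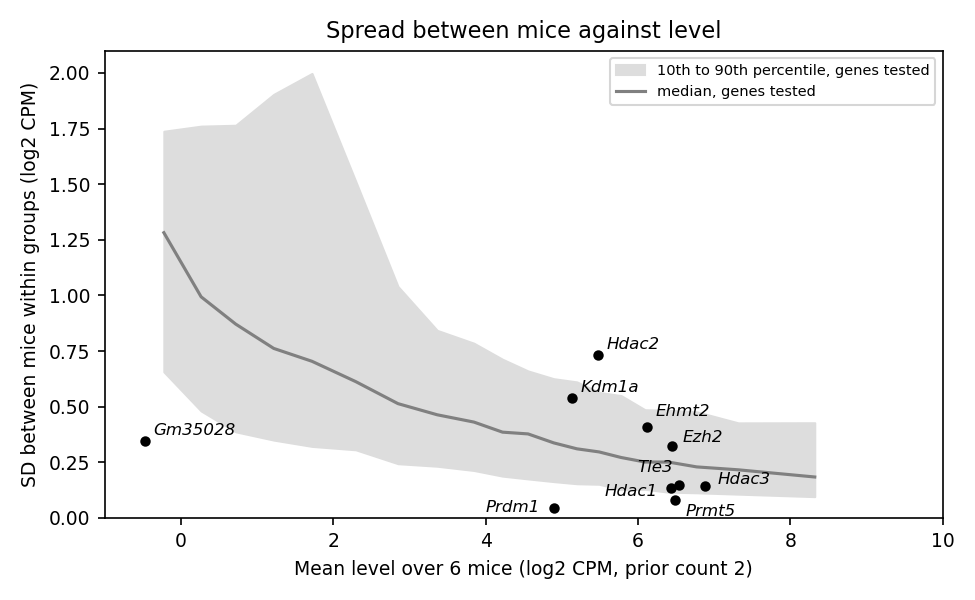
SD of log2 CPM between mice within groups (vertical axis) against mean log2 CPM over 6 mice (horizontal axis) for the 10 genes, over the median (grey line) and the 10th to 90th percentile (grey band) of all genes tested. *Prdm1* lies below the band and *Hdac2* above it, while *Gm35028*, with 0 counts in CTL, has a spread from 1 group only.

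Per kb of exon, all 8 partner genes were on average expressed above *Prdm1*. The mean CPM per kb over 6 mice was 29.1 for *Hdac3* (range 25.1 to 31.7), 25.1 for *Hdac1* (22.7 to 29.4) and 22.7 for *Prmt5* (21.6 to 25.5). These 3 overlapped in neighbouring pairs. *Ezh2* at 13.2 (10.3 to 16.5), *Ehmt2* at 13 (7.82 to 18) and *Hdac2* at 11.1 (6.02 to 23) formed a second group whose ranges overlapped widely. *Tle3* at 7.99 (7.21 to 9.03) and *Kdm1a* at 7.06 (3.56 to 9.36) followed, then *Prdm1* at 5.31 (4.92 to 5.52) and *Gm35028* at 0.597 (0 to 1.45). The range of *Prdm1* lay under that of *Tle3* and inside that of *Kdm1a*, so the order of *Kdm1a* and *Prdm1* does not hold in every mouse.

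With the length of the longest transcript in place of all exons, *Hdac1* came to 42.5, *Prmt5* to 33.4, *Hdac3* to 32.9 and *Ezh2* to 31.7 CPM per kb, and *Prdm1* to 5.61. *Hdac1*, *Prmt5* and *Kdm1a* moved up in the order, and *Prdm1* and *Gm35028* kept places 9 and 10. In CPM, *Prdm1* stood at the 57.6th percentile of the tested genes and *Gm35028* at the 0.941th, whereas the partners ran from the 61.4th (*Kdm1a*) to the 88.7th (*Hdac3*).

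BCL6, the antagonist of BLIMP-1, was the more highly expressed of the pair in every mouse. The ratio of *Bcl6* to *Prdm1* per kb was 2.689, 1.833 and 3.761 in CTL and 2.548, 2.781 and 2.452 in *Prdm1*-CKO mice. The CTL values enclosed all *Prdm1*-CKO values (two-sided exact permutation test, p = 0.9), and the spread came from *Bcl6*, which ran from 65.82 to 124 CPM, more than from *Prdm1*. The log2 fold change of *Bcl6* was 0.01 (standard error 0.23, edgeR quasi-likelihood adjusted p = 0.9983).

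The closest paralogs of the partners gave ratios that were as variable. *Prmt5* exceeded *Prmt1*, the main asymmetric arginine methyltransferase, 1.801-fold to 3.67-fold per kb in all 6 mice, and *Tle3* exceeded *Tle4* 1.127-fold to 2.348-fold. *Hdac3* exceeded *Hdac8*, a class I deacetylase that works outside these complexes, 6.807-fold to 11.56-fold. *Ehmt2* was above *Ehmt1*, its partner GLP, in 5 of 6 mice and lay at 0.8547 of it in CTL replicate 2. *Ezh2* against *Ezh1* ranged from 0.5921 to 1.423, and *Kdm1a* against *Kdm1b* from 0.3971 to 1.895, with only 2 and 3 of 6 mice above 1. *Tle1* was near the floor, with 64, 2 and 0 counts in CTL and 36, 12 and 20 in *Prdm1*-CKO mice. The groups overlapped in all of these ratios (exact permutation p from 0.4 to 1 over the 9 ratios computed, each 1 after Benjamini-Hochberg adjustment).

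**Figure D5:**
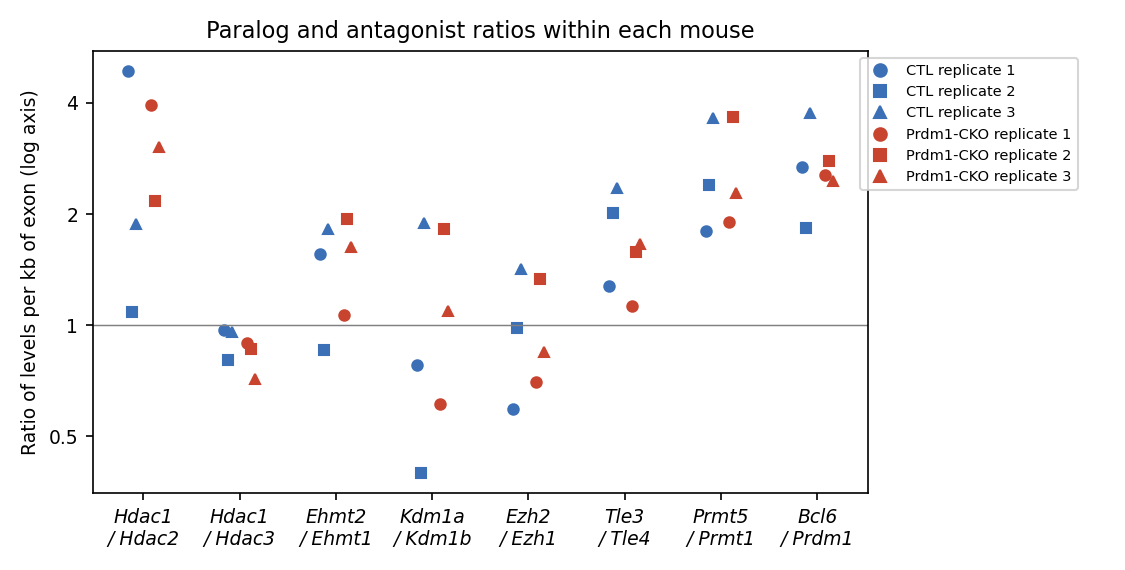
Ratio of levels per kb of exon within each mouse (log axis) for *Hdac1* over *Hdac2* and over *Hdac3*, for partner genes over their paralogs, and for *Bcl6* over *Prdm1*; the grey line marks equal levels. *Hdac1* over *Hdac2* spreads from 1.087 to 4.888, and CTL and *Prdm1*-CKO mice overlap in every ratio.

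No gene of the complexes around the partners passed the test. Of 106 other genes in 13 lists (corepressor complexes, related enzymes, other PRDM proteins, and targets and regulators of *Prdm1*), 96 were tested. In edgeR 0 of the 96 passed at an adjusted and 0 at an unadjusted p under 0.05, against 0% and 2.35% of all genes tested. DESeq2 also gave 0 at either, against 0.0531% and 2.62% of the genes to which it gave a p. With each mouse left out in turn, 0 to 5 passed at an unadjusted p, 5 of them without CTL replicate 1 and 5 without CTL replicate 3. The median log2 fold change was -0.02 against 0.01 for all genes tested, and 46 of the 96 lay above 0. The *Prdm1*-CKO mice were entirely above the CTL mice in 4 genes and entirely below in 4, against 4.56% and 3.86% of all genes.

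By complex, the G9a and GLP list had 7 of 7 genes tested and a median log2 fold change of -0.14. Its range of levels ran from *Cdyl* at 1.805 to *Cbx5* (HP1 alpha) at 13.42 CPM per kb. *Cbx1* (HP1 beta) was its only gene without overlap (8.42% of all genes tested), at 37.93 to 45.11 CPM in CTL and 50.14 to 53.84 CPM in *Prdm1*-CKO mice. The other H3K9 methyltransferases, 4 of 4 tested, ran from *Suv39h2* at 0.4099 to *Setdb2* at 10.86 CPM per kb, with a median of 0.16.

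CoREST had 7 of 8 genes tested and a median of -0.17. The neuronal corepressor gene *Rcor2* was the lowest of the list, at 0.07918 CPM per kb.

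NuRD and Sin3 had all 18 genes tested and a median of -0.02, from the scaffold gene *Suds3* at 1.135 to the histone chaperone gene *Rbbp7* at 116.8 CPM per kb, the highest of any complex listed. Non-overlap went in opposite directions within Sin3. *Sap30* was at 3.485 to 6.854 CPM in CTL and 7.533 to 12.98 CPM in *Prdm1*-CKO mice, *Sap18* at 41.77 to 50.37 and 35.8 to 39.86 CPM, and *Arid4a* at 146.7 to 167.6 and 100.8 to 142.3 CPM. None of these passed the test. The NCoR list, 5 of 5 tested, was highest in *Gps2* at 41.64 CPM per kb and had a median of -0.12.

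All 4 genes of the PRMT5 methylosome had log2 fold changes above 0, with a median of 0.18, while *Prmt5* itself was at -0.10. They ran from *Coprs* at 0.4751 to *Clns1a* at 30.99 CPM per kb. Of the other arginine methyltransferases, 7 of 8 were tested, with a median of -0.04. *Carm1*, a coactivator enzyme, was at 13.28 to 28.83 CPM in CTL and 9.837 to 12.91 CPM in *Prdm1*-CKO mice without passing the test. *Prmt8* had 0 counts in every mouse, and *Prmt3* was the highest at 10.94 CPM per kb. PRC2, 10 of 10 tested, had a median of 0.06 with *Phf19* lowest at 2.535 CPM per kb. The other Groucho genes, 4 of 5 tested, ran from *Tle2* at 0.1176 to *Aes* at 12.53 CPM per kb with a median of 0.29. The other deacetylases, 7 of 8 tested, ran from *Hdac11* at 0.1278 to *Hdac10* at 22.67 CPM per kb with a median of -0.05.

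Among the other 14 genes of the PRDM family, *Prdm2* had the highest level, 7.072 CPM per kb, and was the only one above *Prdm1*. *Prdm2* had 56.52, 55.78 and 55.06 CPM in CTL and 55.71, 49.7 and 42.08 CPM in *Prdm1*-CKO mice. *Prdm6*, *Prdm8*, *Prdm12*, *Prdm13* and *Mecom* had 0 counts in every mouse. The meiotic recombination gene *Prdm9* was detected, at 1.919 to 5.672 CPM in CTL and 5.274 to 5.466 CPM in *Prdm1*-CKO mice. *Prdm15* varied from 9.004 to 33.76 CPM within the CTL group alone.

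Of the 11 genes known to be repressed by BLIMP-1, all were tested, 5 had a log2 fold change above 0, and the median was -0.02. *Tcf7*, which encodes TCF1 and is the highest of the list at 207.4 CPM per kb, had 513.8 to 652.4 CPM in CTL and 483 to 547.9 CPM in *Prdm1*-CKO mice. *Bach2*, itself a repressor of *Prdm1*, had the lowest log2 fold change of the list, -0.25, at 26.42 to 43.4 CPM in CTL and 18.94 to 38.6 CPM in *Prdm1*-CKO mice.

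Of the 11 genes, 2 had groups that did not overlap, *Pax5* and *Spib*, both with *Prdm1*-CKO above CTL (4.56% of all genes tested). *Pax5*, the B cell identity factor, had 24, 0 and 8 counts in CTL and 42, 30 and 39 in *Prdm1*-CKO mice. *Spib* had 190, 0 and 55 counts in CTL and 349, 147 and 314 in *Prdm1*-CKO mice. *Ciita*, the master regulator of MHC class II, had 49.21, 7.799 and 53.43 CPM in CTL and 51.88, 54.57 and 94.9 CPM in *Prdm1*-CKO mice, with an overlap. None of these passed the test, and CTL replicate 2 held the lowest value in each. The summed level of 8 B cell markers overlapped between the groups, at 177.9, 108.6 and 118.5 CPM in CTL and 236.5, 149.7 and 217.4 CPM in *Prdm1*-CKO mice, and the part of B cell RNA in these values was not tested. Plasma cells also express *Prdm1*, and their 6 markers summed to 405.8 to 646.4 CPM in CTL and 652.4 to 872.6 CPM in *Prdm1*-CKO mice. These ranges were separate by a narrow margin. The largest part of the sum was *Jchain*, at 253.6 to 382.6 CPM in CTL and 361.7 to 634.6 CPM in *Prdm1*-CKO mice, with an overlap. *Prdm1* was at 27.45 to 30.81 CPM, and the part of plasma cell RNA in this level was not tested.

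The 9 known regulators of *Prdm1* had a median log2 fold change of -0.07 and 0 calls. The genes whose pattern over the 6 mice was most like that of *Prdm1*, by the root mean square difference of centred log2 CPM, were *Ubtf* at 0.03, *Dmac2* at 0.03, *Vps36* at 0.03, *Top3b* at 0.04 and *Stmn1* at 0.04, against a median of 0.37 over all genes tested. All 5 shared with *Prdm1* a nearly flat profile. *Ubtf*, which encodes a factor of ribosomal RNA transcription, had 139.6 to 157.6 CPM in CTL and 153.8 to 163.8 CPM in *Prdm1*-CKO mice.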

How the data were processed

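RNA came from Tfh cells sorted from the spleens of 3 CTL and 3 *Prdm1*-CKO mice, 50 ng per library, made with Smart-seq2 and sequenced as paired reads of 25 bases. The authors counted reads per gene with featureCounts and deposited raw counts without normalization, 1 file per mouse. The paper names mm10 with a GENCODE annotation, and the submitters' processing notes name GRCm38.p6, STAR 2.4.2a and DESeq2. Use of strand, treatment of multiply aligned reads and fragment counting are not given in the sources used here, so genes that share sequence or overlap are uncertain.

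Groups came from the sample titles. GENCODE M21 (GRCm38) gave gene symbols, exon lengths and positions, and holds 53274 of the 53379 identifiers, 50604 in the same version. Coordinates are given only for these, and *Hdac3* is not among them. Start regions are those of RefSeq. Groups were compared with edgeR 4.0.16 under R 4.3.3 (TMM, filterByExpr, quasi-likelihood F test, no covariate, two-sided), with Benjamini-Hochberg adjustment over 14555 genes. Levels are TMM-scaled CPM, with a prior count of 2 for log2 CPM. The floor of detection was 3 counts per library. DESeq2 1.42.0 served as an alternative, beside DESeq2's size factors, total counts, the replicate number as a block, no filter, a minimum of 10 counts per mouse, each mouse left out in turn, thinned libraries and the longest transcript as length. The steps were tested on simulated data. Mice were taken as replicates, as the titles number them.

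The members, gene lists and marker lists were chosen with earlier results of these data known. Named genes are the 10 members, their closest paralogs, the highest and lowest gene per kb of each list, any PRDM or BLIMP-1-repressed gene, the 2 nearest genes on each side of *Prdm1* and the 5 genes most like *Prdm1*. *Cbx1*, *Sap30*, *Sap18*, *Arid4a*, *Carm1*, *Gm35154*, *Mzb1* and *Derl3* were named after their values were seen, because their groups did not overlap. Of the genes this rule names, 2 are not reported here by themselves, and they stay in every fit and list count.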

Additional observations from a re-analysis of the deposited data

How the results depend on the processing

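Over 12 alternatives for each of the 9 tested genes, 100 of 108 log2 fold changes kept their direction, none passed an adjusted p under 0.05, and the smallest adjusted p was 0.6688 in edgeR, for *Hdac2* without CTL replicate 1. The 8 that turned direction all left out a mouse and were near 0: *Ezh2* turned to -0.016 (CTL replicate 1 left out) and -0.0099 (*Prdm1*-CKO replicate 2), *Tle3* to 0.016 (CTL replicate 2) and 0.0089 (*Prdm1*-CKO replicate 1), *Kdm1a* to -0.11 (CTL replicate 3) and -0.0013 (*Prdm1*-CKO replicate 2), and *Hdac3* to -0.054 (CTL replicate 3) and -0.028 (*Prdm1*-CKO replicate 3). *Prdm1* stayed between 0.06 and 0.11 with any mouse left out. *Hdac2* passed an unadjusted p under 0.05 in edgeR without CTL replicate 1 and without the expression filter (adjusted p = 0.9052). With each mouse left out, *Ezh2* ran from -0.016 to 0.32, *Tle3* from -0.14 to 0.016, *Kdm1a* from -0.11 to 0.43 and *Hdac3* from -0.054 to 0.091.

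Over all genes, edgeR placed 135 above and 207 below CTL by an unadjusted p under 0.05 and 0 by an adjusted p under 0.05. DESeq2's Wald test placed 264, 417 and 9, and edgeR without the filter 426, 510 and 1. Both tested more genes. Leaving out each mouse gave 58 to 580 genes higher, 107 to 617 lower and 0 at an adjusted p. Genes of the 13 lists called at an adjusted p numbered 0 under every alternative run, while at an unadjusted p they numbered 0 to 5 with each mouse left out and 1 without the filter.

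The titles do not say whether mice with the same replicate number were paired. Deviations of same-numbered mice from their group means correlated at 0.158, 0.0282 and 0.016 across genes. Their mean was 0.0676, against -0.0333 for pairs with other numbers, and these values alone cannot settle whether the mice were paired. With the number as a replicate block, the unadjusted p placed 175 genes higher and 196 lower, the adjusted p 0, and the log2 fold change was 0.09 for *Prdm1* and -0.58 for *Hdac2*.

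The precision is limited by 3 mice a group, by CTL replicate 2, which stands apart, and by 186 to 536 counts per mouse on *Prdm1*.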
